A study of Mus musculus with 12 samples.

Results

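Messenger RNA of the proteasome was followed in the mouse striatum through the 49 genes whose symbol begins with Psma, Psmb, Psmc, Psmd, Psme or Psmg, out of 19935 genes with a name of their own on the array. The members were taken by gene symbol and by no measured value, but the list was chosen with earlier results of these data known. Of the 49, 8 encode the alpha ring of the 20S core, 7 its constitutive beta ring and 4 the beta subunits of the immunoproteasome and thymoproteasome. Another 6 encode the ATPases of the 19S cap, 11 its non-ATPase subunits and 3 its assembly chaperones, while 4 encode activators and 4 the assembly chaperones of the core. Psmc3ip and Psme3ip1 carry such a name without encoding a proteasome subunit and are given apart. Psme2b shared its only probe set with Psme2, and that probe set was left out of the 49 genes.

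The animals were male Swiss-Albino mice of 2 months. On each of 6 induction trials, held on alternate days, SalMorphine mice had a vehicle injection and then morphine at 20 mg/kg, and ButMorphine mice had sodium butyrate, an inhibitor of histone deacetylases, at 300 mg/kg and then morphine at 20 mg/kg. Saline mice had vehicle injections only. Both morphine groups had a morphine challenge 7 days after induction, and striatal RNA was taken 1 h after it. For the Saline group the labels disagree, with saline in the source names and morphine in the protocol text, so what the 3 groups share at challenge is not settled. Each Affymetrix Mouse Gene 1.0 ST array held RNA pooled from 4 mice, and there were 6 Saline, 3 SalMorphine and 3 ButMorphine arrays. The labels do not say whether the pools came from separate cohorts, so a p-value measures at most the spread between arrays. The saline part of that spread comes from mirrored arrays, described below. The design asks how repeated morphine, with and without butyrate, changes striatal expression.

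The proteasome breaks down proteins tagged with ubiquitin. Its barrel-shaped 20S core stacks rings of alpha subunits, which gate the entry, on rings of beta subunits, which hold the proteolytic sites. The 19S cap binds ubiquitin chains, removes them and threads the protein into the core with a ring of ATPases, and other activators can dock in its place. In neurons the proteasome turns over synaptic proteins and takes part in lasting changes of synaptic strength. Its subunits are made in near-fixed proportions, and the transcription factor Nfe2l1 raises their genes together when the proteasome is blocked.

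Values are log2 differences from a baseline set on the saline arrays. Saline arrays 1 and 2, 3 and 4, and 5 and 6 are mirror images in every row, so each gene has a saline mean of 0 and only 3 independent saline values. Array medians over all genes lay between -0.017 and 0.012. The rounding of the values shows whether a probe set was stored at 8 or more or between 4 and 8 on the array's log scale. By that class 35 of the 49 proteasome genes (71.4%) were stored at 8 or more, against 24.4% of all genes. All constitutive beta, ATPase and 19S non-ATPase genes were in the upper class, and so were the alpha genes except Psma8. All 4 immunoproteasome and thymoproteasome beta genes and all 4 chaperones of the core were in the lower class. The class depends on the probes as well as on the RNA.

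Of 10 markers of medium spiny neurons, the main cell type of the striatum, 7 were measured and 7 of them were stored at 8 or more. Their mean lay between -0.14 and -0.12 on the SalMorphine arrays, where 2 of 7 fell, and between -0.034 and 0.016 on the ButMorphine arrays, where 0 passed. All 9 choroid plexus markers rose in SalMorphine and 7 of 9 in ButMorphine, with means of 1.19 to 1.43 and 0.87 to 1.16, against saline values within 0.13 of 0. Of 8 microglial markers 3 and 2 fell (means -0.23 to -0.17 and -0.20 to -0.14), and of 8 endothelial markers 4 and 4 fell (-0.33 to -0.25 and -0.26 to -0.16). The means of 7 astrocyte markers were 0.082 to 0.14 and 0.12 to 0.19, with 1 rise in each group, and those of 6 oligodendrocyte markers -0.15 to -0.0048 and 0.019 to 0.12, with none called. The means of 5 markers of cortical excitatory neurons ran from -0.84, on array 2, to 0.15 over the SalMorphine arrays and from -0.16 to 0.090 over the ButMorphine arrays, with none called. Those of 7 markers of thalamus and septum ran from 0.073 to 0.58, with 3 rises, and from -0.068 to 0.48, with none called. The part of these shifts in the proteasome values was not tested, and in pooled tissue fewer cells of a type and less RNA per cell cannot be told apart.

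Promoter sequence could be matched for 41 of the 49 genes, by 45 promoters of the RefSeq annotation of assembly GRCm38.p6. Of all 32851 promoters there, 19827 had their 250th base next to the gene start of the RefSeq gene list. The 250 bases before the annotated promoter start are printed for Psme4, which rose, for Psmg1 and Psmb8, whose 6 morphine arrays all lay outside the saline range, and for Psmb5, the proteolytic subunit gene with the lowest mean on the morphine arrays. They lie at chr11:30771525-30771774 on the plus strand (Psme4), chr16:95990961-95991210 on the minus strand (Psmg1), chr17:34197945-34198194 on the plus strand (Psmb8) and chr14:54617996-54618245 on the minus strand (Psmb5). Each is written 5′ to 3′ along its gene, and capitals mark a match to any of 4 motifs searched on both strands.
Psme4: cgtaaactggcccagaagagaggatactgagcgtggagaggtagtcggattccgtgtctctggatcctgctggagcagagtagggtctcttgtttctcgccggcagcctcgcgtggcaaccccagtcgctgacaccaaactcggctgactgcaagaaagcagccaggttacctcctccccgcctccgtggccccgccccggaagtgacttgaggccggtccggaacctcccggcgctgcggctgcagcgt
Psmg1: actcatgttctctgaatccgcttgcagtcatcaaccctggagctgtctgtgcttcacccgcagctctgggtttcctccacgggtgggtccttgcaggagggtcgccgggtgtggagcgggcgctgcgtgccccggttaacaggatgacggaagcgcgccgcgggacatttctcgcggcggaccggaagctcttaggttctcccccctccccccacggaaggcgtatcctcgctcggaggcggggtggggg
Psmb8: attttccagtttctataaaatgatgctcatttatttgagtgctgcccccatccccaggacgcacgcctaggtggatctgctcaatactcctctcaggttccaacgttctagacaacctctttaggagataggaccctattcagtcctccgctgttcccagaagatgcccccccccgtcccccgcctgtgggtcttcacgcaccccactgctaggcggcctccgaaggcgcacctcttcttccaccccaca
Psmb5: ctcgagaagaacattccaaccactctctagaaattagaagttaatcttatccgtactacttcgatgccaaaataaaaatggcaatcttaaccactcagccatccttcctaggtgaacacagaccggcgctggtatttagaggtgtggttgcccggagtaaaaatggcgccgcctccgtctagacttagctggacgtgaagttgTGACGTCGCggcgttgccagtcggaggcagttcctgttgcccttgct
The 4 motifs were the CCAAT box (CCAAT), the core of the antioxidant response element bound by Nfe2l1 and Nfe2l2 (TGACNNNGC), the core of the interferon-stimulated response element (TTTCNNTTTC) and the glucocorticoid response element (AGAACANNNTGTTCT). The capitals in the Psmb5 promoter are a match to the antioxidant core, which also occurred before Psmb6, Psmc6, Psmd9 and Psmd12. That is 5 of 45 member promoters (11.1%), against 10.2% of the 32851 promoters in the table. The interferon core was found before Psmb3, Psmd4 and Psmd9 (6.67% against 2.98%), the CCAAT box in 16 member promoters (35.6% against 33.8%) and the glucocorticoid element in 0 (0.00913% of all promoters). The windows of Psme4, Psmg1 and Psmb8 held none of the 4 motifs.

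Psme4, the gene of the nuclear activator PA200, rose and Psmb1, a structural beta subunit gene, fell after butyrate and morphine, and the other 47 proteasome genes did not pass the test there. With a vehicle in place of butyrate 0 of 49 passed, against 2.66% of all genes, although 13 had an unadjusted p under 0.05. Of these, 6 were higher and 7 lower, or 12.2% and 14.3% of the members, against 6.81% and 8.73% of all genes. In ButMorphine against Saline 2 of 49 passed, against 2.48% of all genes (1.85% higher and 0.637% lower). There 15 had an unadjusted p under 0.05, 8 of them higher and 7 lower, or 16.3% and 14.3%, against 10.5% and 6.44% of all genes. In ButMorphine against SalMorphine 0 of 49 and 0% of all genes passed, and 9 members (18.4%) had an unadjusted p under 0.05, against 8.62% of all genes. With both morphine groups set together against Saline, Psme4 alone passed, against 4.59% of all genes. Tests were limma fits over all 19935 genes with Benjamini-Hochberg adjustment and a threshold of 0.05, and the comparisons with saline share the same saline arrays. Those 6 arrays hold 3 independent values but enter as 6, so p-values and intervals are approximate.

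The proteasome genes had no common direction. The median difference over the 49 genes was -0.0020 in SalMorphine and -0.0093 in ButMorphine against Saline, beside -0.0036 and 0.0063 over all genes, and 24 of 49 lay above 0 in each. Differences were small: the 95% interval of each of the 49 genes stayed within 1.5-fold in all 4 comparisons, as did those of 99.4% to 99.6% of all genes. Within 1.2-fold lay the intervals of 43 proteasome genes in SalMorphine and 40 in ButMorphine against Saline (87.8% and 81.6%, against 87.1% and 85.4% of all genes). The median size of the difference, sign aside, was 0.066 in both, against 0.046 and 0.049 over all genes. Among genes stored at 8 or more this size was 0.0570 and 0.0656 for 35 members, against 0.0555 and 0.0565 for 4867 genes. The share with an unadjusted p under 0.05 was 26.5% and 30.6%, beside 15.5% and 17% of all genes. Among genes stored at 8 or more, which include most of the proteasome genes, it was 28.6% and 34.3% of 35 members beside 21% and 21.2% of 4867 genes.

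**Figure D1:**
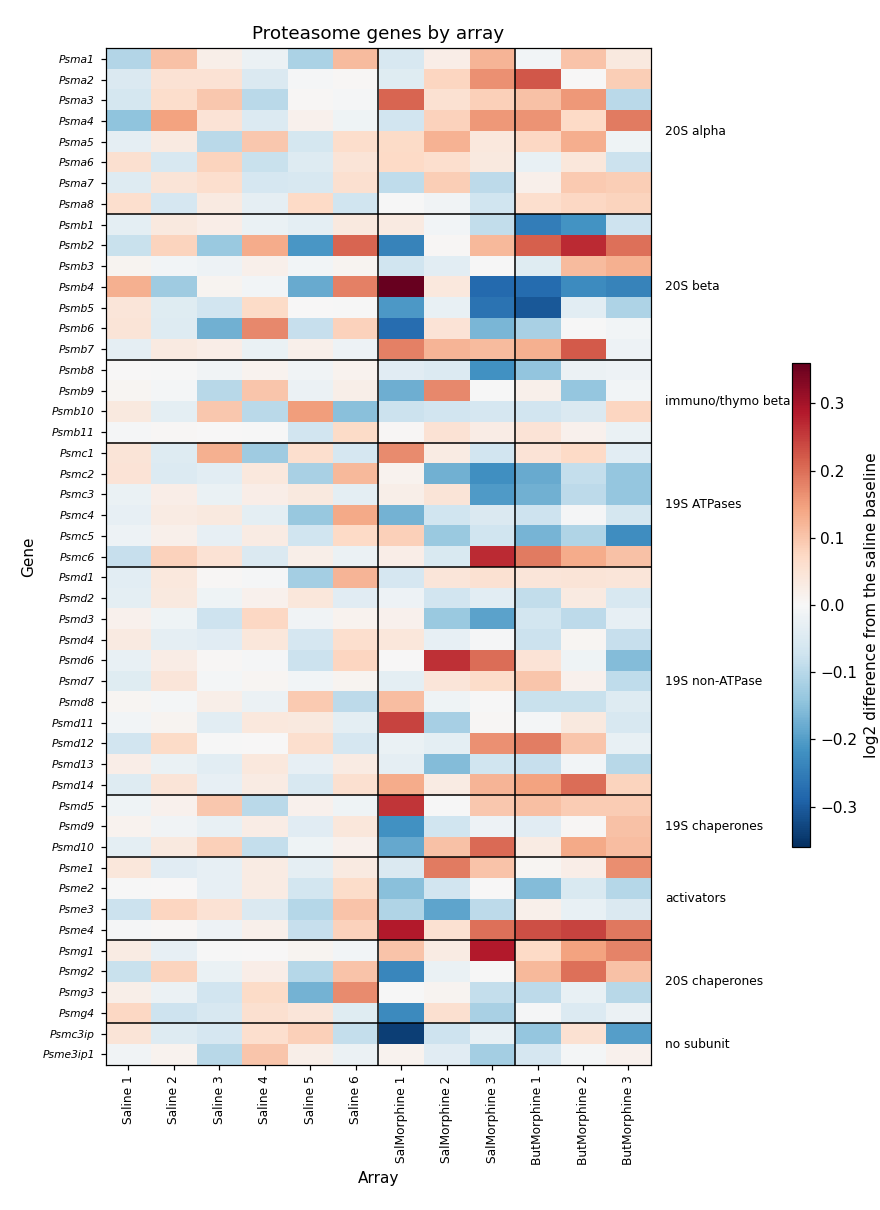
Each of the 49 genes (rows, by subcomplex) on each of the 12 arrays (columns, by group), coloured by its log2 difference from the saline baseline, red above and blue below. No subcomplex has 1 colour over both morphine groups, and the strongest single values are Psmb4 at 0.36 and Psmc3ip at -0.34 on SalMorphine array 1.

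**Figure D2:**
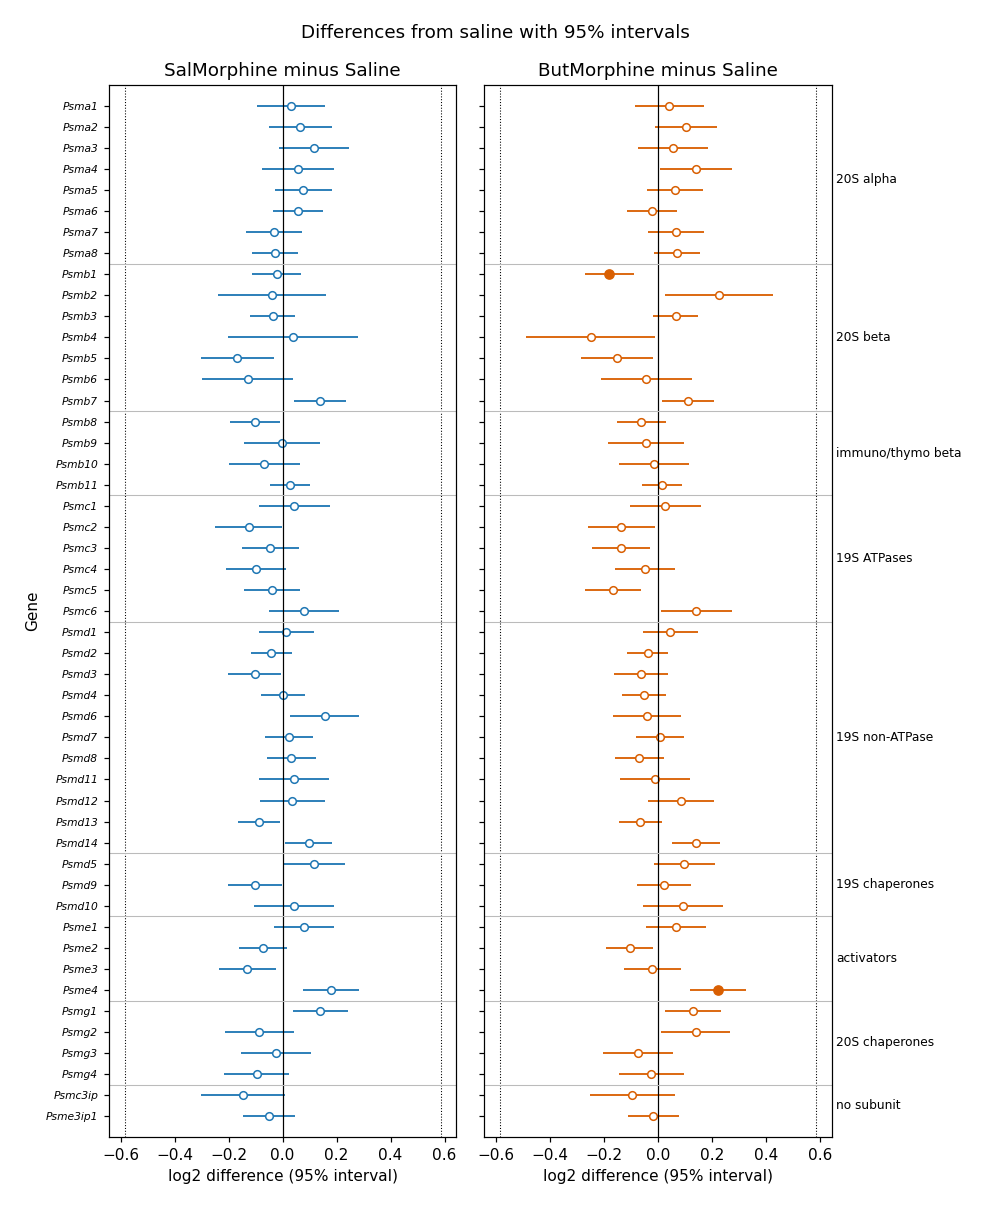
Log2 difference from Saline with its 95% interval for each gene, SalMorphine on the left and ButMorphine on the right, where dotted lines mark 1.5-fold and filled points an adjusted p under 0.05. All 49 intervals lie between the dotted lines in both panels, and the filled points are Psmb1 and Psme4 in ButMorphine.

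**Figure D3:**
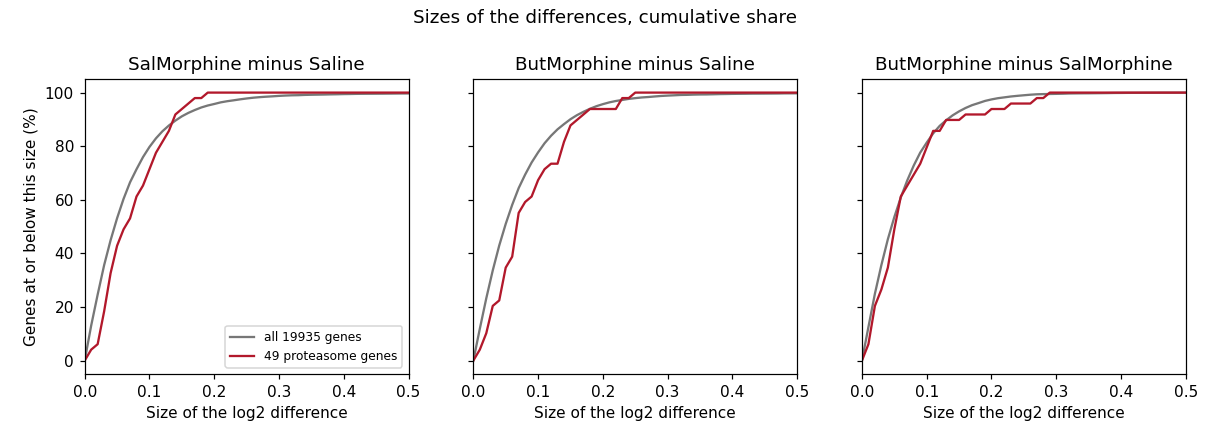
Cumulative share of genes (percent, vertical) by the size of the log2 difference (horizontal) for the 49 proteasome genes in red and all 19935 genes in grey, in 3 comparisons. At a size of 0.1, 71.4% of the proteasome genes and 79.7% of all genes were at or below it in SalMorphine against Saline, and 67.3% and 77.7% in ButMorphine against Saline. The curves are not matched for stored level.

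Of the 8 alpha ring genes none passed the limma test in any comparison, with an unadjusted p under 0.05 for 0 in SalMorphine and 1 (Psma4) in ButMorphine against Saline. Their median difference was 0.056 in SalMorphine, where 6 of 8 lay above 0 (47.8% of all genes did), and 0.065 in ButMorphine, where 7 of 8 did (53.6% of all genes). Psma7 and Psma8 lay below 0 in SalMorphine and Psma6 in ButMorphine. Over the 6 morphine arrays all 8 means were above 0, beside 50.7% of all genes. The mean was highest for Psma4, at 0.098 ± 0.094 (SD, n = 6), and lowest for Psma6, at 0.017 ± 0.057. Psma4 was at -0.070, 0.083 and 0.16 on the SalMorphine arrays and at 0.16, 0.070 and 0.19 on the ButMorphine arrays, within a saline range of -0.15 to 0.15 on all but 3 of them. Psma3 had 3 probe sets of that name, with differences of 0.10, 0.13 and 0.12 in SalMorphine, and those of Psma5 were 0.12 and 0.033. Subunit genes can have near-identical copies elsewhere in the genome, so which copy each probe set reads is uncertain. Psma8, which replaces an alpha subunit in the testis and was in the lower stored class, was higher on every ButMorphine array (0.060 to 0.080) than on every SalMorphine array (-0.072 to -0.00044), by 0.10 (adjusted p = 0.562).

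Among the 7 constitutive beta genes Psmb1 fell in ButMorphine. Psmb1 is a structural subunit of the ring with no proteolytic site of its own. Its 6 saline values lay between -0.035 and 0.035 with a median of 0. It was at 0.032, -0.011 and -0.088 on the SalMorphine arrays and at -0.25, -0.22 and -0.075 on the ButMorphine arrays. Every ButMorphine array was below every saline array, while ButMorphine array 3 lay within the SalMorphine range. The difference was -0.18 (SE 0.043), a level 0.883 of saline (95% interval 0.829 to 0.941, adjusted p = 0.0450 by limma), against -0.023 (adjusted p = 0.877) in SalMorphine. ButMorphine minus SalMorphine was -0.16 (unadjusted p = 0.00699, adjusted p = 0.391). The call was kept in 4 of the 12 fits that left out 1 array and lost in the other 8, those without any 1 saline array or without ButMorphine array 1 or 2, with adjusted p from 0.0154 to 0.191. It was also lost with the morphine arrays tested against the baseline alone (0.0775), with a trended and robust variance (0.0822) and with only saline arrays 1 to 3 (0.213). With the replicate number as a block on those saline arrays it was lost too (0.36).

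The 3 proteolytic subunit genes had mean differences of both signs over the morphine arrays, and whether they differ from each other was not tested. Psmb5, which carries the chymotrypsin-like activity, was at -0.21, -0.028 and -0.27 on the SalMorphine arrays and at -0.31, -0.038 and -0.11 on the ButMorphine arrays, against saline values within 0.069 of 0. Array 2 of each morphine group lay within the saline range and the other 4 below it, and the mean difference over both groups was -0.16 (adjusted p = 0.0964). Psmb6, of the caspase-like activity, had a mean of -0.086 ± 0.12 (SD, n = 6) over the same arrays (adjusted p = 0.512). Psmb7, of the trypsin-like activity, was at 0.18, 0.12 and 0.11 in SalMorphine and at 0.13, 0.22 and -0.017 in ButMorphine, against saline values within 0.033 of 0. All 3 SalMorphine arrays were above all saline arrays, and ButMorphine array 3 was the only one of the 6 within the saline range. The Psmb7 difference was 0.14 (SE 0.045) in SalMorphine (adjusted p = 0.126), 0.11 in ButMorphine (adjusted p = 0.226) and 0.13 over both groups (adjusted p = 0.0713). Without ButMorphine array 3 it was called in ButMorphine and over both groups, and Psmb5 was called over both groups without SalMorphine array 2.

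Psmb4 and Psmb2, also structural subunits, varied most. Psmb4 was at 0.36, 0.039 and -0.28 on the SalMorphine arrays, the widest spread of any proteasome gene (SD 0.32), and at -0.28, -0.23 and -0.24 on the ButMorphine arrays. The ButMorphine arrays lay together below all saline arrays (-0.18 to 0.18), while the SalMorphine arrays spanned the whole of both. ButMorphine minus Saline was -0.25 (SE 0.11, adjusted p = 0.275). Psmb2 was at -0.24, 0.0037 and 0.12 in SalMorphine and at 0.22, 0.27 and 0.20 in ButMorphine, with saline from -0.21 to 0.21. ButMorphine was above SalMorphine on every array, by 0.27 (SE 0.11, adjusted p = 0.508). Its saline SD of 0.17 was the largest of the 49 genes. Psmb3, the remaining structural subunit, was at 0.066 in ButMorphine, where its probe sets gave 0.024 and 0.11.

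**Figure D4:**
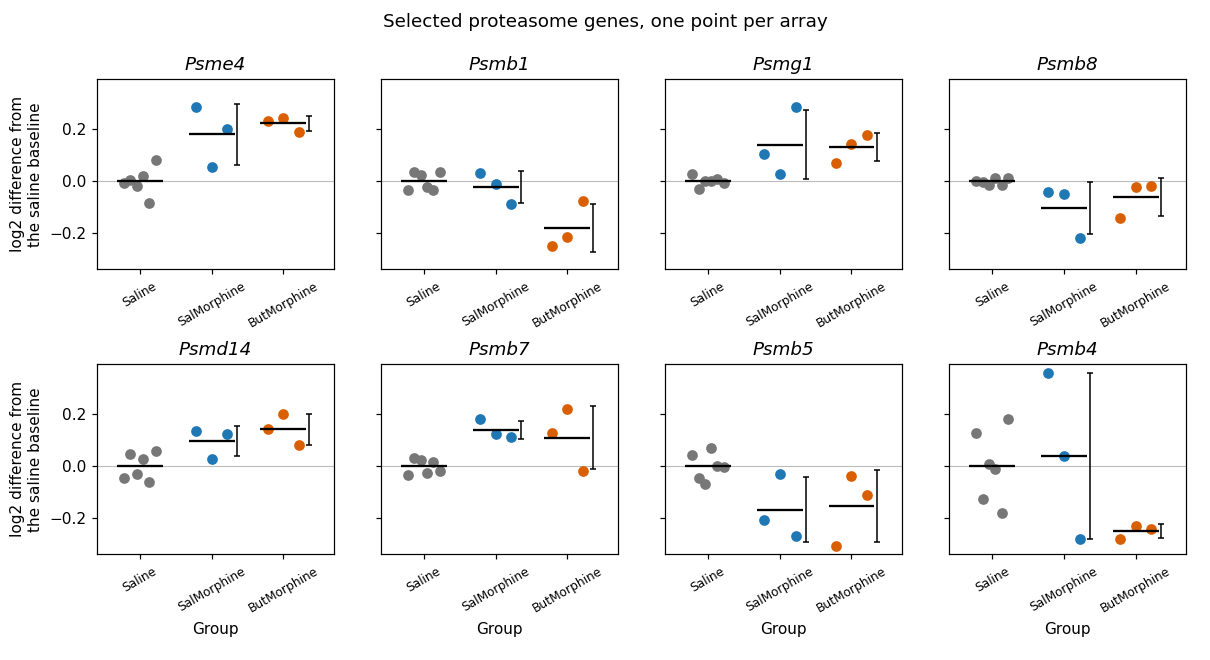
Log2 difference from the saline baseline for 8 proteasome genes, 1 point per array, where the horizontal bar is the group mean and the error bar the SD of 3 arrays. Psme4 and Psmg1 sit above and Psmb8 below the saline mean on all 6 morphine arrays, Psmb1 reaches -0.25 on the ButMorphine arrays, and Psmb4 spreads from -0.28 to 0.36 over SalMorphine.

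The immunoproteasome subunits, which interferon induces and which take the place of the proteolytic subunits in immune cells, stayed near saline. None of Psmb8, Psmb9, Psmb10 and the thymic Psmb11 passed the limma test, with an unadjusted p under 0.05 for Psmb8 alone, in SalMorphine and over both groups. Their medians were -0.035 in SalMorphine and -0.029 in ButMorphine. Psmb8 had the tightest saline values of the 49 genes, between -0.014 and 0.014. It was at -0.042, -0.050 and -0.22 on the SalMorphine arrays and at -0.14, -0.021 and -0.018 on the ButMorphine arrays. All 6 were below all saline arrays, as in 1.34% of all genes, with a mean difference of -0.082 (SE 0.035, adjusted p = 0.219), and SalMorphine array 3 and ButMorphine array 1 carried most of it. Psmb9 and Psmb10 had means of -0.023 and -0.041 over the 6 morphine arrays, and Psmb11 of 0.021, each within its saline range on average. The microglial marker means given above were also below saline on all 6 arrays, and their part in the Psmb8 values was not tested.

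The 6 ATPases, the motor ring of the 19S cap, had differences of both signs. Psmc5, one of the ring, was at 0.087, -0.13 and -0.071 on the SalMorphine arrays and at -0.17, -0.11 and -0.22 on the ButMorphine arrays, against saline values within 0.071 of 0. All ButMorphine arrays were below all saline arrays and the SalMorphine arrays lay on both sides, and ButMorphine minus Saline was -0.17 (SE 0.049, adjusted p = 0.0959). Psmc3 was at 0.022, 0.046 and -0.21 in SalMorphine and at -0.17, -0.096 and -0.14 in ButMorphine, with saline within 0.036 of 0. It too was below saline on all ButMorphine arrays, by a log2 difference of -0.14 (SE 0.049, adjusted p = 0.178). Psmc6 was above saline on all ButMorphine arrays (0.10 to 0.19, difference 0.14, adjusted p = 0.254) and had the highest mean of the ring over both groups, at 0.11. Psmc2 had the lowest, at -0.13 (adjusted p = 0.141). None of the 6 passed in any comparison, and 4 of them had an unadjusted p under 0.05 in ButMorphine against Saline, Psmc2, Psmc3 and Psmc5 below and Psmc6 above. In that comparison Psmc5 was called with array weights (adjusted p = 0.0328), with only the groups compared (0.0359) and without SalMorphine array 1 (0.0422), and Psmc3 with only the groups compared (0.0350) and without SalMorphine array 3 (0.0420). Over both groups Psmc2 and Psmc5 were called without SalMorphine array 1, and Psmc2 with each saline mirror pair entered once.

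Of the 11 non-ATPase genes of the cap 0 passed the limma test in any comparison, with an unadjusted p under 0.05 for 4 in SalMorphine and 1 in ButMorphine against Saline. Psmd14, the deubiquitinase that strips ubiquitin from a bound protein, was at 0.13, 0.030 and 0.12 on the SalMorphine arrays and at 0.14, 0.20 and 0.080 on the ButMorphine arrays, against saline values within 0.059 of 0. SalMorphine array 2 was the only one of the 6 within the saline range. The difference was 0.14 (SE 0.041, adjusted p = 0.0900) in ButMorphine, 0.096 (adjusted p = 0.270) in SalMorphine and 0.12 over both groups (adjusted p = 0.0624), where it was called without SalMorphine array 2. Psmd7, which pairs with Psmd14 in the cap, had a mean of 0.016 over the 6 arrays. Psmd6, a subunit of the cap's lid, was at 0.0024, 0.26 and 0.20 in SalMorphine and at 0.049, -0.015 and -0.16 in ButMorphine, with saline within 0.078 of 0. SalMorphine arrays 2 and 3 were high and ButMorphine array 3 low, and ButMorphine minus SalMorphine was -0.20 (SE 0.068, adjusted p = 0.441). The lid gene Psmd3 had the lowest mean of the 11 over both groups, at -0.083 ± 0.075 (SD, n = 6). Without SalMorphine array 1, Psmd6 and Psmd3 were called in SalMorphine against Saline, higher and lower, and in no other fit without 1 array. Psmd8 was lower on every ButMorphine than on every SalMorphine array, by a log2 difference of -0.10 (adjusted p = 0.594), and the ubiquitin receptor gene Psmd4 and the scaffold genes Psmd1 and Psmd2 had means of -0.024, 0.029 and -0.040 over the 6 arrays. The probe sets of Psmd2 gave -0.083 and 0.0065 in ButMorphine.

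The assembly chaperones of the cap, Psmd5, Psmd9 and Psmd10, help the ATPase ring to form and leave before the proteasome is complete. Psmd5 had the highest mean over both groups, at 0.11 ± 0.083 (SD, n = 6), and Psmd9 the lowest, at -0.040 ± 0.11. In SalMorphine Psmd5 was at 0.12 (adjusted p = 0.291) and Psmd9 at -0.10 (adjusted p = 0.303). Psmd10, also known as gankyrin, was at -0.19, 0.11 and 0.20 on the SalMorphine arrays, so that group spread further than its mean of 0.041.

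Of the activators, Psme4 rose in ButMorphine and over both morphine groups. PA200, its product, caps the core without ATP or ubiquitin and is known for its part in the breakdown of acetylated histones and in DNA repair. Its saline values lay between -0.083 and 0.083 with a median of 0. It was at 0.29, 0.056 and 0.20 on the SalMorphine arrays and at 0.23, 0.24 and 0.19 on the ButMorphine arrays. SalMorphine array 2 was the only one of the 6 morphine arrays within the saline range. In ButMorphine the difference was 0.22 (SE 0.048), or 1.17-fold (95% interval 1.09 to 1.25, adjusted p = 0.0308 by limma), and in SalMorphine it was 0.18 (SE 0.048), or 1.13-fold (1.05 to 1.22, adjusted p = 0.0691). ButMorphine minus SalMorphine was 0.042 (95% interval -0.078 to 0.16, adjusted p = 0.896), so the groups were not shown to differ. Over both groups the rise was 0.20 (SE 0.039), or 1.15-fold (1.08 to 1.22, adjusted p = 0.0112).

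The call of Psme4 over both groups was kept in all 12 fits without 1 array (adjusted p 0.00207 to 0.0302). It was lost with only saline arrays 1 to 3 (0.103) and with the replicate number as a block on those arrays (0.201). Its call in ButMorphine was kept in 4 of those 12 fits and lost in 8 (0.00859 to 0.123), those without 1 of saline arrays 1 to 5 or any ButMorphine array. It was also lost against the baseline alone (0.0553), with a trended and robust variance (0.0730), with only saline arrays 1 to 3 (0.143) and with that block (0.261). Without SalMorphine array 2 Psme4 was also called in SalMorphine.

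The interferon-induced pair Psme1 and Psme2, whose products form the PA28 cap, had opposite signs. Psme1 had a mean of 0.072 ± 0.095 (SD, n = 6) over the morphine arrays (adjusted p = 0.383). Psme2 was at -0.15, -0.070 and 0.0016 in SalMorphine and at -0.16, -0.055 and -0.10 in ButMorphine, against saline values within 0.065 of 0, and its mean was -0.089 (adjusted p = 0.162). SalMorphine arrays 2 and 3 and ButMorphine array 2 were nearest to saline, and ButMorphine minus Saline was -0.10 (SE 0.041, adjusted p = 0.212). The probe set that Psme2 shares with Psme2b was at -0.019, -0.17 and 0.028 in SalMorphine and at -0.087, -0.12 and -0.091 in ButMorphine. Psme3, whose product forms a nuclear cap of the same family, was at -0.11, -0.19 and -0.095 in SalMorphine and at 0.018, -0.027 and -0.053 in ButMorphine, with saline within 0.10 of 0. Every SalMorphine array was below every ButMorphine array, and SalMorphine minus Saline was -0.13 (SE 0.049, adjusted p = 0.203).

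The 4 chaperones that build the core work in pairs, Psmg1 with Psmg2 and Psmg3 with Psmg4. Psmg1 was at 0.10, 0.030 and 0.29 on the SalMorphine arrays and at 0.071, 0.14 and 0.18 on the ButMorphine arrays, against saline values within 0.029 of 0. All 6 morphine arrays were above all 6 saline arrays, as in 1.95% of all genes, though SalMorphine array 2 by little. The difference was 0.14 (SE 0.048, adjusted p = 0.152) in SalMorphine, 0.13 (SE 0.048, adjusted p = 0.180) in ButMorphine and 0.14 over both (SE 0.039, adjusted p = 0.0683). Without SalMorphine array 3 the SalMorphine difference was 0.067 (adjusted p = 0.513), and without array 2 it was 0.20 (0.0504). Psmg1 was called over both groups without SalMorphine array 2, with array weights and with each saline mirror pair once, and in ButMorphine with only the groups compared. Its partner Psmg2 was at -0.24, -0.023 and -0.0028 in SalMorphine and at 0.12, 0.20 and 0.11 in ButMorphine, with saline within 0.10 of 0. All ButMorphine arrays were above all other arrays. ButMorphine minus SalMorphine was 0.23 (SE 0.068), or 1.17-fold (95% interval 1.06 to 1.30), with the lowest unadjusted p of the 49 genes in that comparison (0.00527, adjusted p = 0.375). Psmg3 and Psmg4 had means of -0.049 and -0.060 over the 6 morphine arrays.

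Psmc3ip, a cofactor of meiotic recombination that binds an ATPase of the cap, and Psme3ip1, a binding partner of the Psme3 product, are proteasome genes by name only. Their means over the 6 morphine arrays were -0.12 ± 0.14 and -0.034 ± 0.052 (SD, n = 6), and neither passed in any comparison.

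Counted by arrays rather than by the fit, the groups did not overlap for 3 of 49 genes in SalMorphine against Saline (Psmb7 and Psmg1 higher, Psmb8 lower), or 6.12%, beside 8.2% of all genes. In ButMorphine against Saline they did not overlap for 10 genes, or 20.4%, beside 11.7%. The 5 higher ones were Psmc6, Psmd14, Psme4, Psmg1 and Psmg2, and the 5 lower ones Psmb1, Psmb4, Psmb8, Psmc3 and Psmc5. Among genes stored at 8 or more, 3 of 35 members were higher and 4 lower there, beside 452 and 302 of 4867 genes. For ButMorphine against SalMorphine the count was 5 genes, or 10.2%, beside 10.7%: Psma8, Psmb2, Psme3 and Psmg2 higher and Psmd8 lower. All 6 morphine arrays lay on 1 side of all saline arrays for Psmg1 and Psmb8 alone, or 4.08%, beside 3.29%. Outside ButMorphine against Saline the shares were near or below those of all genes, and the spread of these genes over the subcomplexes was not tested.

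The SalMorphine arrays disagreed with each other more over proteasome genes than the ButMorphine arrays did. The saline arrays are mirror pairs around 0 with 3 independent values, so their SD is not a like measure of the spread between pools. The median SD of a proteasome gene was 0.10 over the 3 SalMorphine arrays, 0.055 over the 3 ButMorphine arrays and 0.061 over the 6 saline arrays, beside 0.076, 0.055 and 0.061 over all genes. Psmb4, Psmd10, Psmd11 and Psmb2 had an SD of 0.18 or more in SalMorphine. On SalMorphine array 1 the spread across the 49 genes was 0.15, beside 0.12 across all genes, and on array 2 it was 0.092 beside 0.15. The highest proteasome gene was Psmb4 on SalMorphine array 1, Psmd6 on array 2 and Psmg1 on array 3, and the lowest was Psmc3ip, Psme3 and Psmb4. On the ButMorphine arrays the highest was Psme4 on array 1 and Psmb2 on arrays 2 and 3, and the lowest Psmb5 on array 1 and Psmb4 on arrays 2 and 3.

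Genes that work with the proteasome without carrying its prefixes were read beside it. Of 25 listed partners and regulators 19 were measured. Of these 1 (5.26%) passed in ButMorphine and over both groups, beside 2.48% and 4.59% of all genes. It was Sem1, which encodes the smallest subunit of the cap and fell in ButMorphine. Sem1 was at -0.16, -0.084 and -0.018 on the SalMorphine arrays and at -0.20, -0.12 and -0.22 on the ButMorphine arrays, against saline values within 0.061 of 0. All ButMorphine arrays were below all saline arrays, by a log2 difference of -0.18 (adjusted p = 0.0462), and over both groups it was -0.13 (adjusted p = 0.0491). These calls were kept in 3 and 2 of 12 fits without 1 array (adjusted p up to 0.159 and 0.116) and in 6 and 5 of 10 other settings (up to 0.314 and 0.326). Nfe2l1, the regulator of proteasome genes, was at -0.092 in SalMorphine (adjusted p = 0.362) and -0.0054 in ButMorphine (adjusted p = 0.974). The core maturation factor gene Pomp was at -0.53, 0.014 and 0.17 on the SalMorphine arrays, and Ubqln4, a shuttle for tagged proteins, had a difference of -0.18 there (adjusted p = 0.0730). Of 6 ubiquitin and activating enzyme genes, Uba6 alone was measured, at 0.019 and 0.037 in SalMorphine and ButMorphine (adjusted p = 0.954 and 0.870).

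Antigen presentation, which uses peptides made by the immunoproteasome, was covered by 10 of 13 listed genes. In SalMorphine and in ButMorphine 1 of the 10 passed (10%), beside 2.66% and 2.48% of all genes. Over both groups 2 did (20%), beside 4.59%. Tapbp, which loads peptides onto class I molecules, rose in SalMorphine by 0.14 (0.10, 0.19 and 0.12 on the arrays, saline within 0.024 of 0, adjusted p = 0.0374) and was at 0.10 in ButMorphine (adjusted p = 0.115). Its SalMorphine call was kept in 4 of 12 fits without 1 array (adjusted p up to 0.101), and over both groups it rose by 0.12 (adjusted p = 0.0185), a call kept in 6 of 9 other settings (adjusted p up to 0.306). Irf8, a transcription factor of microglia and other myeloid cells, fell in ButMorphine, with a difference of -0.17 (-0.15, -0.23 and -0.11 on the arrays, adjusted p = 0.0306), and was at -0.14 in SalMorphine (adjusted p = 0.0541). The Irf8 call was kept in 6 of those 12 fits (adjusted p up to 0.145). Over both groups Irf8 was at -0.15 (adjusted p = 0.00943), a call kept in 7 of 9 other settings (up to 0.288), and 3 of 8 microglial markers also fell there. The peptide transporter gene Tap1 was at -0.17 in each group (adjusted p = 0.15 and 0.17), and the other 7 genes of the list did not pass either.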

How the data were processed

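The authors deposited 1 table of 28815 rows for the 12 arrays, in values taken here as log2 differences from a saline baseline. How the arrays were corrected, normalized and summarised, and the log base, are not stated in the labels, and the baseline of the morphine arrays is unknown. The fit enters all 6 mirrored saline arrays, which hold 3 independent values, and entering each pair once is an alternative.

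Of the rows, 21780 had 1 gene symbol in the platform annotation, 1605 several and 5430 none. Of the 21780, 21689 matched the RefSeq table of GRCm38.p6 and 0 symbols changed. Probe sets were averaged per gene, giving 19935 genes and 55 probe sets for 49 members.

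The 3 groups entered limma 3.58.1 under R 4.3.3 (lmFit and eBayes, 3 group means, 9 residual and 3.99 prior degrees of freedom), with Benjamini-Hochberg adjustment over 19935 genes and a threshold of 0.05. The code was tested on simulated data. Alternatives covered scaling, variance, saline arrays, thresholds, stored level and each array left out.

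Members, lists and tests were chosen with earlier results of these data known. Every array is given for members past the threshold, filled up to 12 by lowest p, and the extreme members of each subcomplex are named. From other lists, called genes are named. Genes described beyond these were chosen after their values were seen.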

Additional observations from a re-analysis of the deposited data

How the results depend on the processing

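The number of proteasome genes past the threshold was small and moved with the processing, and no called gene changed direction. The median over the members, which lay near 0, changed sign in 3 of the 4 comparisons. In SalMorphine against Saline the number of genes past the threshold was 0, and 1 (Psme4) with only genes stored at 8 or more, with array weights or at a threshold of 0.1. Without 1 array it was 0 to 2. In ButMorphine against Saline it was 2, and 0 against the baseline alone, with a trended and robust variance, with only saline arrays 1 to 3 or at a threshold of 0.01. It was 4 at a threshold of 0.1 and 5 with only the groups compared (Psmb1, Psmc3, Psmc5, Psme4 and Psmg1), and 0 to 3 without 1 array. Over both morphine groups it was 1, and 2 against the baseline alone, 4 with array weights, 5 at a threshold of 0.1 and 7 with each saline mirror pair entered once (Psmb1, Psmb5, Psmb7, Psmc2, Psmd14, Psme4 and Psmg1). It was 0 with only saline arrays 1 to 3 or at a threshold of 0.01, and 1 to 4 without 1 array. In ButMorphine against SalMorphine it was 0 under every alternative run. Fewer arrays or fewer independent saline values enter some of these fits. Those against the baseline alone and with each mirror pair once hold the saline mean at 0 without error, so their counts are not a like measure. Otherwise the cause was not tested.

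With only genes stored at 8 or more the median over the members was 0.030 in SalMorphine and 0.0079 in ButMorphine against Saline, and with median centring it was 0.0026 in SalMorphine. Without 1 array it was -0.018 to 0.011 there, -0.0093 to 0.014 in ButMorphine against Saline, and down to -0.0044 in ButMorphine against SalMorphine. A fit without 1 saline array keeps that array's mirror image. Single genes were followed under each alternative only in comparisons where they were called and, for named members, in the pairwise comparison of lowest p. Among these, 323 values kept call and direction, 5 gained a call and 83 lost one. Gains in other comparisons, such as those over both groups given above, are not counted. The 323 include values that were not called and stayed so, and only a called value can lose a call. Sem1, Tapbp and Irf8, which are not members, are among the genes counted.

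Same-numbered SalMorphine and ButMorphine arrays had correlations of -0.12, -0.27 and -0.20 in their deviations from the group means. Those with different numbers had correlations from -0.13 to 0.28. With values already set against a baseline and 3 arrays per group, these cannot decide whether the numbers pair the arrays. A block by replicate number also parts saline arrays 1 and 2, which are mirror images. With the replicate block on saline arrays 1 to 3, 0 members were called in each comparison, and 54, 51, 0 and 83 of all genes were called in SalMorphine, ButMorphine, ButMorphine minus SalMorphine and both groups, against 100, 106, 0 and 164 with those arrays and no block. Over all genes, the 531, 495 and 916 calls in SalMorphine, ButMorphine and both groups against Saline became 231, 230 and 524 with a trended and robust variance and 234, 173 and 316 among the 4867 genes stored at 8 or more. ButMorphine gave 917 with array weights and 988 with only the groups compared, and both groups gave 1481 with array weights, 2023 against the baseline alone and 2299 with each mirror pair once. The fits against the baseline alone and with each mirror pair once hold the saline mean at 0 without error. The number of arrays limits the precision.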
